A study of Mus musculus with 8 samples.

Results

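The 8 genes described here mark the serotonergic neurons of the raphe, the cell groups along the midline of the brainstem that supply the rest of the brain with serotonin. They were *Tph2*, *Slc6a4*, *Maob*, *Htr1a*, *Fev*, *Lmx1b*, *Gata2* and *Gata3*, and they were found by their Ensembl gene identifiers among the 49585 genes of the count table made by alignment to the C57BL/6J genome. Raphe neurons arise in the embryonic hindbrain under a cascade of transcription factors and are already making serotonin at birth. Their cell bodies are few among the cells of a whole brain, while their axons reach most of it.

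The RNA-seq data covered whole brains of newborn female (C57BL/6 x CAST/EiJ) F1 mice, labelled postnatal day 1, with 4 brains at 0 ppm and 4 at 50 ppm. Both groups shared the cross, with a C57BL/6J mother and a CAST/EiJ father, and differed in the CdCl2 in the drinking water of the dam before and during gestation. Each pup came from a different litter, and RNA was taken from an aliquot of the pulverised brain, so that each library is 1 animal and 1 aliquot. The question addressed was whether maternal cadmium (Cd) exposure changed the levels of these genes in the newborn brain. Fewer raphe neurons and less RNA per neuron cannot be told apart in such samples.

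Synthesis of serotonin in the brain starts with *Tph2*, tryptophan hydroxylase 2, the rate-limiting enzyme. *Slc6a4* encodes the serotonin transporter, which returns released serotonin to the neuron and which newborn thalamic neurons also carry for a time. *Maob* encodes monoamine oxidase B, a mitochondrial enzyme of amine breakdown found in serotonergic neurons and in astrocytes. *Htr1a* encodes the serotonin 1A receptor, an autoreceptor on raphe neurons that is also abundant on cortical and hippocampal neurons. *Fev*, also called Pet-1, is an ETS factor close to exclusive to serotonergic neurons within the brain, and *Lmx1b* is a LIM homeodomain factor that these neurons need and that midbrain dopaminergic and dorsal spinal neurons also express. *Gata2* and *Gata3* are zinc finger factors of the serotonergic lineage that also act in midbrain and spinal interneurons and in blood cells.

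The stretches upstream of *Tph2*, *Fev* and *Slc6a4* are shown because these are among the more selective raphe genes of the 8, though newborn thalamic neurons also carry *Slc6a4*. Factors of the ETS, GATA and homeodomain families are also among the members themselves. Each is the 250 bases before the RefSeq start in GRCm38.p6, written 5′ to 3′ on the strand of the gene, with 2 words in capitals where they occur. One is AGATAA, which zinc finger factors such as *Gata2* prefer, and the other is TAATTA, the core word of many homeodomain factors. They lie at chr10:115185023-115185272 (minus strand) for *Tph2*, chr1:74885409-74885658 (minus strand) for *Fev* and chr11:76998347-76998596 (plus strand) for *Slc6a4*.
Tph2: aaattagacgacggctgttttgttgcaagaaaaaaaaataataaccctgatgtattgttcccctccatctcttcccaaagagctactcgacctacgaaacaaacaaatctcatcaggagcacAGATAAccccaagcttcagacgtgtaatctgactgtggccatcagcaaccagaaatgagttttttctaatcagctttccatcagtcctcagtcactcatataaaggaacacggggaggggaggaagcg
Fev: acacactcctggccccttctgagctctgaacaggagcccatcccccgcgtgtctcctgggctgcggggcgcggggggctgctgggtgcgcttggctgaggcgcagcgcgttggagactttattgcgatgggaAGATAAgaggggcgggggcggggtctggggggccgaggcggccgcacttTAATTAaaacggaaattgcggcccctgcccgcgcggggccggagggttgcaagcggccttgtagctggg
Slc6a4: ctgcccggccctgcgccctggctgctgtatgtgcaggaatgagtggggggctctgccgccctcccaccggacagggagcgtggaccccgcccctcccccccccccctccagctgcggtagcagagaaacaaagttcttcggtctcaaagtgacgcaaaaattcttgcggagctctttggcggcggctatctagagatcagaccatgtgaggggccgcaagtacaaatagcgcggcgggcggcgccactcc
A promoter entry was found for 7 of the 8 members. On either strand, AGATAA was present upstream of 2 of the 7, *Tph2* and *Fev*, against 9.99% of 32851 promoter entries of the same length. The word began 128 bases before the start of *Tph2* and 118 bases before that of *Fev*. TAATTA, which reads the same on both strands, was present 69 bases before the start of *Fev* and in no other member, against 4.84% of all entries. CCGGAA, the core word of ETS factors such as *Fev*, was found only upstream of *Gata3* among the 7, against 12.0%, and TGATAA in none, against 7.94%. These matches are letters in a window and were not tested as binding sites.

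The libraries held 22916434 to 30708087 counts, and 23113 genes passed the filter on genes without counts. All 8 members passed it. Values are given as CPM, the count of a gene scaled to a common library size, after correction by the TMM factors of edgeR, which ranged from 0.986 to 1.02. A count of 3, the limit that a count of 0 allows, corresponded to 0.0980 to 0.132 CPM. The libraries differed in the level of hindbrain and spinal cord genes. The summed CPM of a list of hindbrain and spinal cord genes (*Hox* genes of groups expressed caudally, glycine receptor and transporter genes, and neuronal factors such as *Tlx3* and *Lbx1*) was 1.06, 7.25, 55.3 and 63.9 in the 0 ppm brains 1 to 4. In the 50 ppm brains 1 to 4 it was 191, 87.3, 55.5 and 76.1. Brains 1 and 2 at 0 ppm stood far below the other 6 libraries. Of the 15 genes listed, 3 (*Hoxa3*, *Hoxa4* and *Hoxd4*) had no count in any library. The remaining 12 all had positive estimates at 50 ppm, with a median log2 fold change of 1.63, and 0 of the 12 passed at an adjusted p under 0.05 while 11 had an unadjusted p under 0.05. The study on these same samples reported raised *Hox* expression at 50 ppm, with *Hoxb8* its most significant gene by RNA-seq. By qRT-PCR on 8 brains a dose it reported *Hoxb2*, *Hoxa5*, *Hoxa6* and *Hoxb5* to *Hoxb8* higher at 50 ppm than in controls. The list used here includes *Hoxb2* and *Hoxb5*. Whether the list follows the share of hindbrain tissue or an effect of exposure was not tested. Without 0 ppm brains 1 and 2, all 12 estimates stayed positive with a median of 0.78, and 8 had an unadjusted p under 0.05. Because of these libraries, the estimates of the members and of several lists are also given without both. That fit was chosen after the data were seen, and in it 7 of all genes tested passed at an adjusted p under 0.05. The share of all genes at an unadjusted p under 0.05 was not computed for it. Counts of list genes at that level in this fit therefore have no background to be set against.

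None of the 8 raphe genes passed the test at 50 ppm. By the edgeR quasi-likelihood test every member had an adjusted p of 0.999, in a comparison in which 0.0173% of all genes tested passed at an adjusted p under 0.05. At an unadjusted p under 0.05 there was 1 member of 8, *Lmx1b*, against a background of 3.75% of all genes, and by DESeq2 there was 0. The 2 groups of 4 brains were without overlap for 0 of the 8, against 2.09% of all genes. Estimates were positive for 5 members and negative for 3, and their median log2 fold change was 0.11 against -0.003 over all genes tested. Without 0 ppm brains 1 and 2 there were 4 positive and 4 negative estimates with a median of 0.0085, and 0 members had an unadjusted p under 0.05. The summed level of the 8 genes was 51.1 to 66.6 CPM at 0 ppm and 58.5 to 69.4 CPM at 50 ppm. The exact two-sided permutation test over the 70 possible labellings, whose smallest p is 0.0286, gave p-values from 0.257 for *Lmx1b* to 0.914 for *Fev*.

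**Figure D1:**
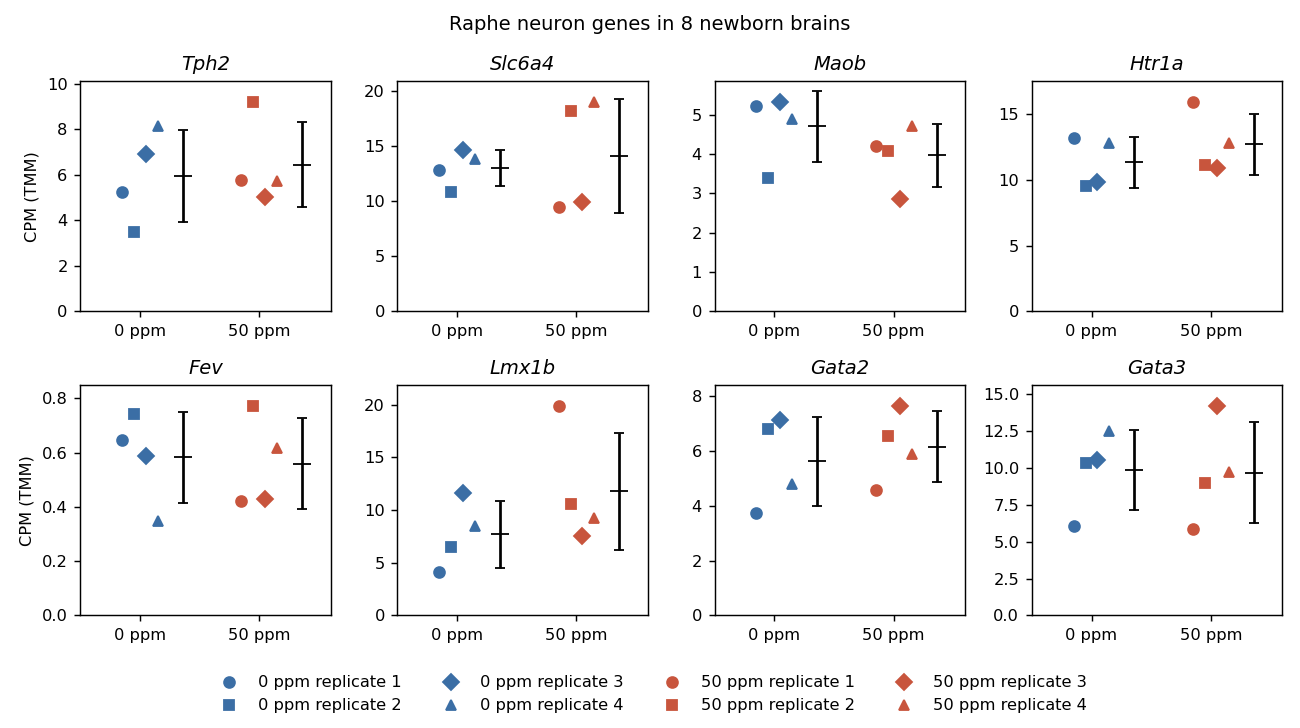
Level of each of the 8 raphe neuron genes in CPM (vertical axes, linear, from 0) in the 4 brains at 0 ppm (blue) and the 4 at 50 ppm (red), with a marker shape for each replicate and, beside each group, the mean and the SD as a bar. The groups overlap for every gene, and the exposed brain 1 stands at 19.9 CPM in the *Lmx1b* panel.

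*Tph2* (ENSMUSG00000006764, chr10:115078641-115185022, minus strand, GRCm38) was measured at 5.26, 3.50, 6.92 and 8.13 CPM in the 0 ppm brains 1 to 4. At 50 ppm the brains 1 to 4 gave 5.79, 9.20, 5.03 and 5.73 CPM. The lowest value belonged to a control and the highest to an exposed brain, and the other 3 exposed brains lay inside the control range. Means were 5.95 ± 2.02 CPM at 0 ppm and 6.44 ± 1.87 CPM at 50 ppm (SD, n = 4 each). The log2 fold change from edgeR was 0.12 (SE 0.23, adjusted p = 0.999), that is 1.08-fold with a 95% interval of 0.78 to 1.51. Counts behind these values were between 94 and 262 a library. Without 0 ppm brains 1 and 2 the log2 fold change of *Tph2* was -0.22.

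*Slc6a4* (ENSMUSG00000020838, chr11:76998603-77032340, plus strand) was at 12.8, 10.8, 14.6 and 13.8 CPM in the 0 ppm brains 1 to 4. The exposed brains 1 to 4 were at 9.44, 18.2, 9.88 and 19.0 CPM. Exposed brains 1 and 3 lay below every control and exposed brains 2 and 4 above every control, so that the spread was wider at 50 ppm. The mean was 13.0 ± 1.62 CPM at 0 ppm and 14.1 ± 5.15 CPM at 50 ppm (SD, n = 4 each). Its log2 fold change was 0.11 (SE 0.19, 95% interval -0.29 to 0.52, adjusted p = 0.999 by edgeR). It was -0.018 without 0 ppm brains 1 and 2. A difference in spread was not tested. The number of *Slc6a4* counts per *Tph2* count ran from 1.70 to 3.10 at 0 ppm and from 1.63 to 3.31 at 50 ppm, and the highest ratio came from exposed brain 4, where *Slc6a4* was high and *Tph2* was not.

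*Maob* (ENSMUSG00000040147, chrX:16709282-16817366, minus strand) was at 5.22, 3.39, 5.32 and 4.88 CPM in the 0 ppm brains and at 4.21, 4.07, 2.85 and 4.72 CPM in the 50 ppm brains, each in the order 1 to 4. Control brain 2 fell among the exposed values, and the other 3 controls were above all 4 exposed brains. The log2 fold change was -0.25 (SE 0.19, 95% interval -0.64 to 0.14, adjusted p = 0.999 by edgeR), the lowest estimate among the 8. It was -0.37 without 0 ppm brains 1 and 2. Counts of *Maoa*, the neighbouring gene for the related oxidase, were 14.9 to 19.9 times those of *Maob* at 0 ppm and 19.4 to 27.4 times at 50 ppm. *Maoa* itself had a log2 fold change of 0.11 (SE 0.09). *Maob* is also an astrocyte gene, and 6 of 7 genes of a list of astrocyte and histaminergic markers had positive estimates, 3 of them (*Aqp4*, *S100b* and *Gfap*) at an unadjusted p under 0.05 and 0 at an adjusted p under 0.05. The summed level of that list was 681 to 843 CPM at 0 ppm and 814 to 990 CPM at 50 ppm, and its part in the *Maob* values was not tested.

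*Htr1a* (ENSMUSG00000021721, chr13:105443639-105448122, plus strand) was at 13.2, 9.52, 9.86 and 12.8 CPM in the 0 ppm brains 1 to 4. In the exposed brains 1 to 4 it was at 15.9, 11.2, 10.9 and 12.8 CPM. Exposed brain 1 was the only library outside the control range on the high side, and none of the exposed brains was below it. The log2 fold change was 0.16 (SE 0.14, 95% interval -0.14 to 0.47, adjusted p = 0.999 by edgeR), and 0.17 without 0 ppm brains 1 and 2.

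*Fev* (ENSMUSG00000055197, chr1:74881509-74885419, minus strand), the most restricted of the factors, was the lowest of the 8 genes. Its counts were 19, 20, 18 and 9 in the 0 ppm brains 1 to 4 and 12, 22, 12 and 14 in the 50 ppm brains, all above the limit of 3. In CPM these were 0.649, 0.744, 0.588 and 0.348 at 0 ppm and 0.421, 0.772, 0.428 and 0.618 at 50 ppm. The lowest value was a control and the highest an exposed brain, and the groups overlapped through most of their range. The log2 fold change was -0.06 (SE 0.34, adjusted p = 0.999 by edgeR), with a 95% interval of 0.58-fold to 1.57-fold. The estimate was 0.23 without 0 ppm brains 1 and 2.

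*Lmx1b* (ENSMUSG00000038765, chr2:33560965-33640511, minus strand) had the largest estimate of the 8 and the widest range, 4.78-fold from the lowest to the highest library. The 0 ppm brains 1 to 4 were at 4.16, 6.47, 11.7 and 8.44 CPM. The 50 ppm brains 1 to 4 were at 19.9, 10.5, 7.53 and 9.22 CPM. Exposed brain 1 lay above all others, the other 3 exposed brains lay within the control range, and the 2 lowest libraries were 0 ppm brains 1 and 2. Means were 7.68 ± 3.17 CPM and 11.8 ± 5.54 CPM (SD, n = 4 each), with a log2 fold change of 0.62 (SE 0.28, 95% interval 0.03 to 1.20, unadjusted edgeR p of 0.0393, adjusted p = 0.999). Without exposed brain 1 the log2 fold change was 0.24 with an unadjusted edgeR p of 0.322. Without 0 ppm brain 1 it was 0.41 with an unadjusted edgeR p of 0.127, and without 0 ppm brain 2 it was 0.55 with an unadjusted edgeR p of 0.0945. It was higher without 0 ppm brain 3, at 0.90 (unadjusted edgeR p of 0.0040), and without exposed brain 3, at 0.79 (unadjusted edgeR p of 0.0134). With 0 ppm brains 1 and 2 both left out it was 0.23, and with the hindbrain score as a covariate it was -0.15 (unadjusted edgeR p of 0.540). That score, the mean log2 CPM of the tested hindbrain genes, was -2.98, -1.56, 1.47 and 1.65 in the 0 ppm brains 1 to 4. It was 3.11, 2.13, 1.70 and 1.87 in the 50 ppm brains. Every exposed score was above every control score, so the covariate fit cannot separate the score from dose.

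*Gata2* (ENSMUSG00000015053, chr6:88193891-88207032, plus strand) was at 3.72, 6.81, 7.12 and 4.80 CPM in the 0 ppm brains 1 to 4 and at 4.56, 6.53, 7.64 and 5.87 CPM in the exposed brains 1 to 4. *Gata3* (ENSMUSG00000015619, chr2:9857078-9890034, minus strand) was at 6.04, 10.3, 10.5 and 12.5 CPM at 0 ppm and at 5.86, 8.95, 14.2 and 9.71 CPM at 50 ppm. For both factors brain 1 of each group was the lowest of its group and exposed brain 3 was the highest library of all. The log2 fold changes were 0.13 for *Gata2* (SE 0.20, 95% interval -0.29 to 0.55) and -0.02 for *Gata3* (SE 0.22, 95% interval -0.49 to 0.45). They were 0.035 and -0.25 without 0 ppm brains 1 and 2. Exons of other genes overlap those of *Gata3*, on 3.9% of its exon bases from the opposite strand and on 1.9% from the same strand, and whether the counting used strand is not given in the sources used here.

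*Tal1*, which acts with *Gata2* and *Gata3* in interneurons and in blood, was at 13.9, 17.0, 20.7 and 26.1 CPM in the 0 ppm brains 1 to 4 and at 12.4, 21.3, 23.8 and 17.5 CPM at 50 ppm. A list of 4 interneuron genes (*Tal1*, *Tal2*, *Sox14* and *Helt*) summed to 18.9, 23.4, 26.6 and 34.4 CPM at 0 ppm and to 15.4, 26.6, 30.7 and 24.4 CPM at 50 ppm. None of the 4 had an unadjusted p under 0.05. A list of 11 blood genes, with globins, *Gata1* and *Klf1*, summed to 138, 264, 269 and 322 CPM at 0 ppm and to 111, 168, 411 and 217 CPM at 50 ppm. In *Tal1* and in both sums brain 1 was the lowest of each group, but single genes of the lists took other orders. *Gata1*, the erythroid factor, was highest in exposed brain 1, at 0.281 CPM. Among the 11, only *Epor* had an unadjusted p under 0.05, with a log2 fold change of -0.76 (SE 0.34). Which cells the *Gata2* and *Gata3* counts came from was not tested.

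Set against the hindbrain genes, the more selective raphe genes and *Lmx1b* took different orders. In 0 ppm brain 1, where the 12 hindbrain genes summed to 1.06 CPM, *Tph2* was at 5.26, *Slc6a4* at 12.8 and *Fev* at 0.649 CPM. In exposed brain 1, where they summed to 191 CPM, *Tph2* was at 5.79, *Slc6a4* at 9.44 and *Fev* at 0.421 CPM. The *Fev* and *Slc6a4* levels were higher in the library with the lowest sum of the hindbrain and spinal cord list than in the one with the highest. *Lmx1b* was 4.16 CPM in the former and 19.9 CPM in the latter, the ends of its range. The part of the hindbrain share in the *Lmx1b* estimate was not tested, since the fit with the score as covariate cannot separate that share from dose.

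**Figure D2:**
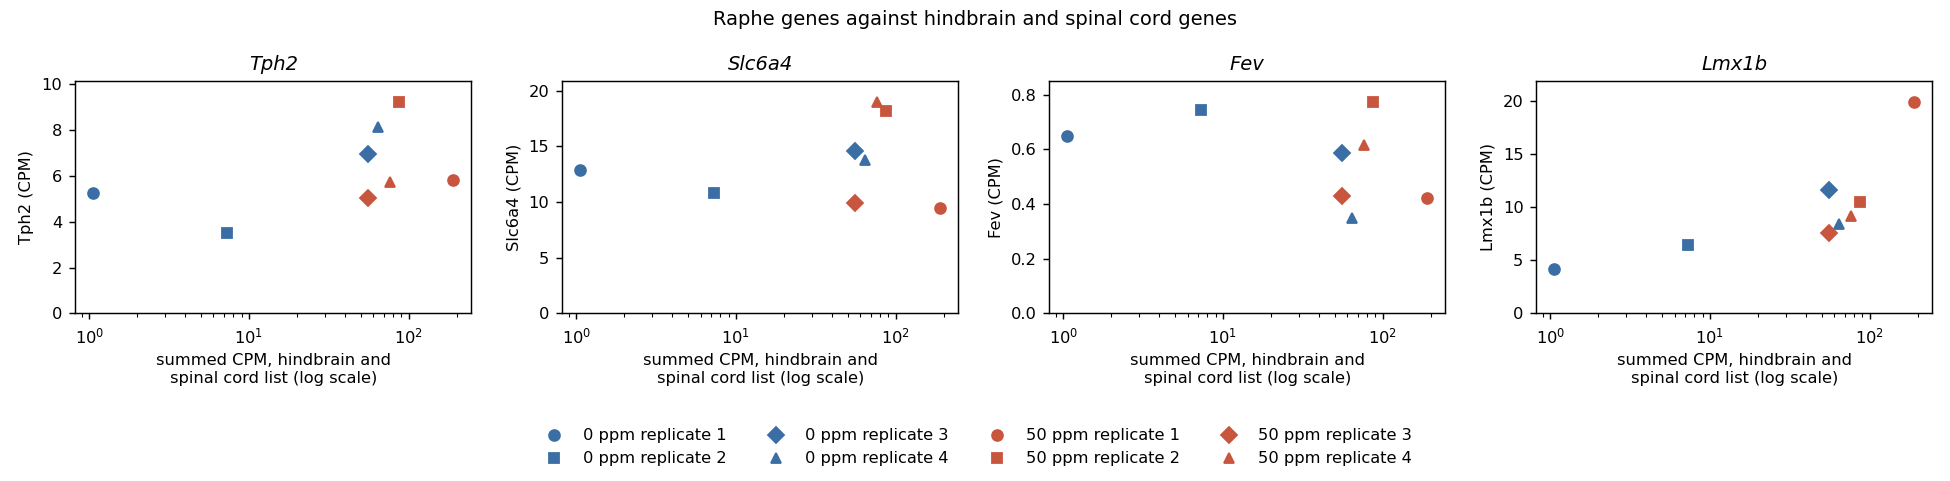
Levels of *Tph2*, *Slc6a4*, *Fev* and *Lmx1b* in CPM (vertical axes, linear) against the summed CPM of the hindbrain and spinal cord list (horizontal axes, log scale) in the 8 brains, with blue for 0 ppm and red for 50 ppm. The 2 brains on the left, at 1.06 and 7.25 summed CPM, hold *Slc6a4* and *Fev* within the range of the other 6 brains, *Tph2* at 5.26 and 3.50 CPM, and the 2 lowest *Lmx1b* levels.

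Because 0 ppm brains 1 and 2 formed a separate cluster, correlations with the hindbrain score (the mean log2 CPM of its tested genes) were tested over the other 6 libraries. In all 4 relations were tested. Between the score and the mean of *Tph2*, *Slc6a4* and *Fev*, Pearson's r was -0.27 (exact permutation p = 0.678, adjusted 0.678) and Spearman's rho 0.09 (exact permutation p = 0.919, adjusted 0.919). Without the 2 libraries farthest from the median score r was 0.0040. For *Lmx1b*, r was 0.83 (exact permutation p = 0.169, adjusted 0.339) and rho 0.37 (exact permutation p = 0.497, adjusted 0.919). Without exposed brains 1 and 2, over only 4 libraries, r became -0.57, so that among the 6 the relation rested on those brains. As a description over all 8 libraries, r with the score was 0.87 for *Lmx1b*, with 0 ppm brains 1 and 2 lowest in both. It was 0.55 for *Tph2*, 0.12 for *Slc6a4* and -0.46 for *Fev*. Over all 8 libraries *Tph2* and *Slc6a4* gave r = 0.58 (exact permutation p = 0.126, adjusted 0.339) and rho = 0.50 (exact permutation p = 0.216, adjusted 0.865), with r = 0.34 without 0 ppm brain 2 and exposed brain 2. *Tph2* and *Fev* gave r = -0.19 (exact permutation p = 0.663, adjusted 0.678) and rho = -0.14 (exact permutation p = 0.752, adjusted 0.919), and r = -0.41 without the same 2 libraries. No relation among the members passed the threshold in these libraries.

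Per length, as CPM per kilobase of exon, the mean levels over the 8 brains ran in the order *Slc6a4* (2.99), *Htr1a* (2.68), *Gata3* (2.45), *Tph2* (2.15), *Lmx1b* (2.00), *Maob* (1.55), *Gata2* (1.09) and *Fev* (0.353). Neighbours in this order overlapped in their ranges from *Slc6a4* down to *Gata2*. *Slc6a4* was above *Htr1a* in 5 of 8 libraries, *Htr1a* above *Gata3* in 4 of 8, and *Gata3* above *Tph2* in 5 of 8, which gives these 4 genes no settled order. *Tph2* was above *Lmx1b*, *Lmx1b* above *Maob* and *Maob* above *Gata2* in 6 of 8 libraries each. Only *Fev* stood apart, below *Gata2* in 8 of 8 libraries without overlap. The factor that is most selective for these neurons was therefore measured with the fewest counts, and the more widely used *Gata2*, *Gata3* and *Lmx1b* with higher levels per length.

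**Figure D3:**
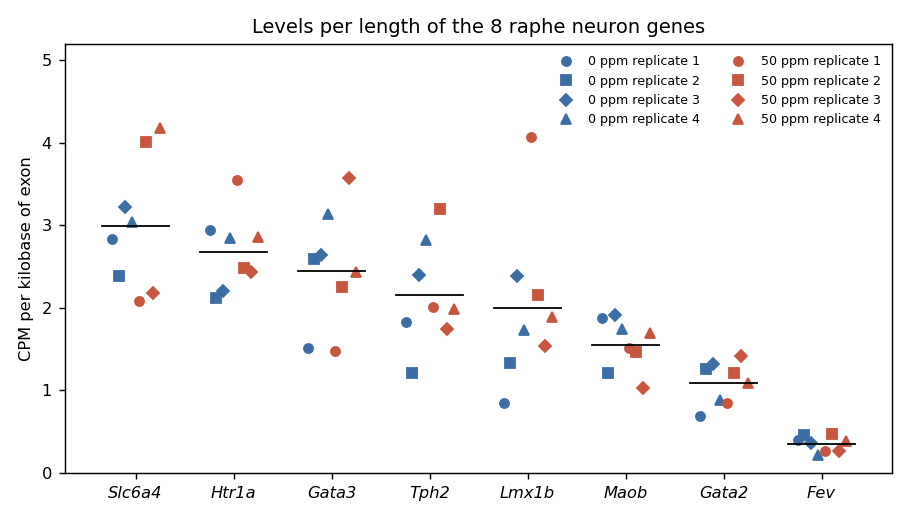
Level per length of the 8 raphe neuron genes (CPM per kilobase of exon, linear axis from 0) in each brain, blue for 0 ppm and red for 50 ppm, with a line at the mean over 8 brains. The genes run from *Slc6a4* at a mean of 2.99 to *Fev* at 0.353, and only *Fev* lies clear of its neighbour.

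Around the 8 members, the genes that make, store and clear serotonin were described as a list of 14, all of which were tested. Estimates were positive for 7 and negative for 7, with a median log2 fold change of 0.01, and 0 of the 14 passed at an adjusted p under 0.05. *Ddc*, the decarboxylase that completes serotonin synthesis, had a mean of 11.7 CPM in both groups. *Slc18a2*, the vesicular monoamine transporter, averaged 17.6 CPM in controls and 18.9 CPM in exposed brains (log2 fold change 0.10). The enzymes of the tetrahydrobiopterin cofactor that *Tph2* requires (*Gch1*, *Pts*, *Spr*, *Pcbd1* and *Qdpr*) had estimates between -0.10 and 0.05. Without 0 ppm brains 1 and 2 the list had 4 positive and 10 negative estimates, with a median of -0.07. In that fit 0 of the 14 had an unadjusted p under 0.05. Estimates there included *Tph1* (-0.60, SE 0.32), *Slc18a1* (-0.53, SE 0.43), *Gch1* (-0.41, SE 0.21) and *Pcbd1* (-0.33, SE 0.17). *Ddc* (-0.29, SE 0.17), *Slc18a2* (-0.26, SE 0.17) and *Spr* (0.22, SE 0.13) followed.

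*Tph1*, the hydroxylase of the pineal gland and of peripheral tissues, was the 1 gene of the 14 with an unadjusted p under 0.05 over all libraries. It was at 1.95, 4.20, 3.04 and 2.48 CPM in the 0 ppm brains 1 to 4 and at 2.14, 2.70, 1.71 and 0.618 CPM in the exposed brains 1 to 4. The groups overlapped, and the lowest library, exposed brain 4, stood well below the others. The log2 fold change was -0.68 (SE 0.31, unadjusted edgeR p of 0.0435, adjusted p = 0.999). Next in order of unadjusted p were *Slc18a1*, the vesicular transporter of endocrine cells, at -0.51 (SE 0.37), and *Maoa*.

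Serotonin receptors other than *Htr1a* were described as a list of 13, which other neurons than those of the raphe mostly carry. The median log2 fold change was 0.02, 7 estimates were positive and 6 negative, and 0 of 13 had an unadjusted p under 0.05. The lowest unadjusted p-values belonged to *Htr7* (log2 fold change 0.23, SE 0.15), *Htr6* (-0.26, SE 0.18) and *Htr5b* (-0.30, SE 0.23). *Htr2c* and *Htr1b* were the highest in CPM, averaging 31.4 and 22.5 CPM in controls and 33.4 and 24.1 CPM in exposed brains. *Htr2b* and *Htr3b* were at or near the limit of detection, with means under 0.1 CPM in both groups.

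Genes that act upstream of the members in the hindbrain and midbrain were described as a list of 10, of which 4 had positive and 6 negative estimates and 0 an unadjusted p under 0.05. The median log2 fold change was -0.06. *Nkx6-1*, a factor of ventral progenitors, had the largest estimate, 0.60 (SE 0.31), with 0.888, 1.86, 3.98 and 2.25 CPM in the 0 ppm brains 1 to 4 and 2.74, 4.18, 2.68 and 4.15 CPM at 50 ppm. As with *Lmx1b*, its 2 lowest libraries were 0 ppm brains 1 and 2. Without both its estimate was 0.12 (SE 0.25). *Insm1*, which acts in neuronal progenitors more widely, had an estimate of -0.27 (SE 0.14). Without 0 ppm brains 1 and 2 it was -0.29 (SE 0.14), the 1 gene of the 10 at an unadjusted p under 0.05 in that fit. *En1* and *En2*, the engrailed genes of the midbrain and anterior hindbrain where the dorsal raphe forms, had estimates of -0.07 and -0.05 over all libraries. Unlike the hindbrain and spinal cord list, *En2* was not low in 0 ppm brain 2, at 24.1 CPM the highest library. In 0 ppm brain 1 it was at 7.95 CPM.

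Transmitters that raphe neurons release beside serotonin, or the genes for them, were described as a list of 6, with 1 positive and 5 negative estimates, a median of -0.08 and 0 at an unadjusted p under 0.05. The positive estimate was that of *Slc17a8*, the vesicular glutamate transporter found in part of the raphe neurons, at 0.28 (SE 0.16). *Nos1* (-0.08, SE 0.10) and *Gal* (-0.22, SE 0.27) had the next lowest unadjusted p-values. Without 0 ppm brains 1 and 2 the list had 2 positive and 4 negative estimates, with a median of -0.33. There 3 genes had an unadjusted p under 0.05 and 0 passed at an adjusted p under 0.05, with no share over all genes computed for that fit. The 3 were *Tac1* (-0.39, SE 0.12), *Gal* (-0.65, SE 0.24) and *Pdyn* (-0.28, SE 0.14).

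**Figure D4:**
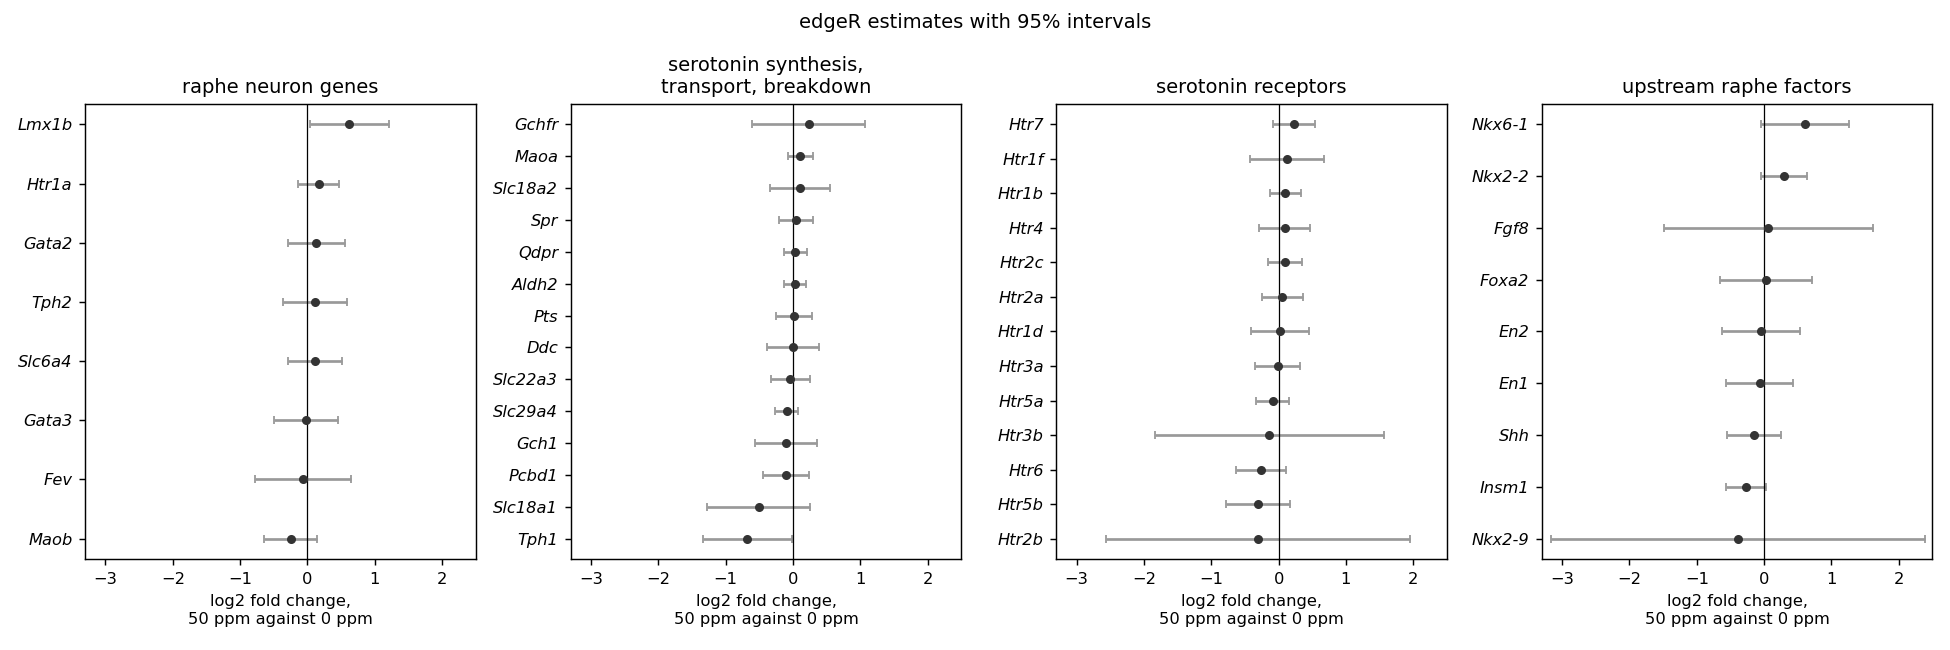
Log2 fold change at 50 ppm against 0 ppm from edgeR (points) with 95% intervals (bars) for the 8 raphe neuron genes, 14 genes of serotonin synthesis, transport and breakdown, 13 serotonin receptors and 9 of the 10 upstream factors. All intervals but those of *Lmx1b* and *Tph1* include 0, and the widest belong to the genes of the lowest counts, such as *Nkx2-9* and *Htr2b*.

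Markers of other cell types that share factors with the raphe had estimates in both directions. *Drgx* (listed as *Prrxl1* in the tables that pair identifiers with names), which Lmx1b-expressing sensory relay neurons of the hindbrain and spinal cord carry, was at 0.137, 0.409, 3.20 and 0.697 CPM in the 0 ppm brains 1 to 4 and at 16.4, 4.60, 3.07 and 5.78 CPM in the exposed brains. Exposed brain 1 was the highest and 0 ppm brains 1 and 2 were the lowest, as for *Lmx1b*. Its log2 fold change was 2.71 (SE 0.59, adjusted p = 0.298 by edgeR), and 1.90 (SE 0.50) without 0 ppm brains 1 and 2. *Lmx1a*, the relative of *Lmx1b* in midbrain dopaminergic neurons, choroid plexus and roof plate, went the other way in its estimate, at -0.51 (SE 0.22, unadjusted edgeR p of 0.0328, adjusted p = 0.999). The *Lmx1a* estimate was -0.67 (SE 0.20) without 0 ppm brains 1 and 2. *Tlx3*, which also stands on the hindbrain list, had an estimate of 0.64 (SE 0.47), and *Pou4f1*, the fourth gene of this list, one of 0.21 (SE 0.17). Without the same 2 brains these were 0.86 (SE 0.37) and -0.10 (SE 0.15). Of the 5 dopaminergic genes, *Foxa1* had an unadjusted p under 0.05 (-0.73, SE 0.31). *Nr4a2* was at -0.20 (SE 0.18), *Pitx3* at 0.45 (SE 0.50), *Slc6a3* at 0.11 (SE 0.35) and *Th* at 0.14 (SE 0.24). Without 0 ppm brains 1 and 2 *Foxa1* was at -1.03 (SE 0.31) and *Nr4a2* at 0.24 (SE 0.11). *Pitx3* was then at 0.49 (SE 0.60), *Slc6a3* at -0.27 (SE 0.33) and *Th* at -0.18 (SE 0.23). The list summed to 68.6 to 120 CPM at 0 ppm and 70.2 to 83.0 CPM at 50 ppm. Most of each sum was *Nr4a2*, which ran from 42.9 to 105 CPM over the 8 libraries.

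Tissue balance at the other end of the brain was read from a list of 12 forebrain genes, which summed to 1064, 1017, 640 and 793 CPM in the 0 ppm brains 1 to 4 and to 726, 766, 876 and 778 CPM in the exposed brains. The 2 highest sums belonged to the brains with the lowest hindbrain sums. Estimates were negative for 11 of the 12, with a median log2 fold change of -0.27, 6 at an unadjusted p under 0.05 and 0 at an adjusted p under 0.05. Without 0 ppm brains 1 and 2 the estimates were positive for 6 and negative for 6, with a median of -0.029 and 8 at an unadjusted p under 0.05. Over all libraries *Dlx1* (-0.42, SE 0.09, adjusted p = 0.232 by edgeR) and *Dlx5* (-0.40, SE 0.13) had the lowest unadjusted p-values. By DESeq2 the study on these same samples reported *Dlx1* as lower in exposed brains, with the same log2 fold change of -0.42. There *Dlx1* passed at an adjusted p under 0.05 in the alignments to both parental genomes. Why the adjusted p differed was not tested.

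The 5 genes whose levels over the 8 libraries were most like the mean standardised log2 CPM of *Tph2*, *Slc6a4* and *Fev*, among 14595 genes with a mean of at least 1 CPM, were *Fndc3b* (r = 0.95), *1110059E24Rik* (r = 0.94), *Eif1ax* (r = 0.94), *4930452B06Rik* (r = 0.94) and *Asah1* (r = 0.93). These are the highest of many correlations over 8 points that share libraries and depth, and are given as a description. None of them is a raphe marker, and their log2 fold changes at 50 ppm were between -0.01 and 0.05.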

How the data were processed

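RNA-seq of 8 newborn whole brains, 4 at 0 ppm and 4 at 50 ppm, was analysed from the table of counts per gene that the authors deposited for the alignment to the C57BL/6J genome. Per the labels and the methods of the study, poly(A) RNA was made into directional libraries, reads were checked with FastQC, trimmed and aligned with STAR to GRCm38 (Ensembl), and counted with HTSeq. Tool versions and the strand setting are not given in the sources used here. Reads from CAST/EiJ alleles that differ from the C57BL/6J genome may align less often, in both groups alike. A second count table, aligned to the CAST/EiJ genome, was not used here, since its identifiers were not paired with the members.

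Genes were kept unless over 2/3 of the libraries had a count of 0. They were fitted in edgeR 4.0.16 (R 4.3.3, TMM scaling, quasi-likelihood test, dose as the only term), with Benjamini-Hochberg adjustment over 23113 genes and a threshold of 0.05. The SE was the log2 fold change divided by the square root of its F statistic. Log2 CPM used a prior count of 2 for the exact permutation tests and correlations (Python 3.11.15, scipy 1.17.1). Alternatives used DESeq2 1.42.0, limma 3.58.1, other filters, a hindbrain score as covariate, and the libraries left out in turn. The fit was tested on simulated data. No 2 libraries agreed within sampling noise (chi-square per degree of freedom of at least 8.67 within groups). Gene names were found for 49326 of 49585 identifiers, gene positions came from GENCODE (GRCm38), and promoters came from RefSeq (GRCm38.p6).

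The members and the gene lists were chosen with earlier results of these data known. The text names all 8 members, in each list the genes past the adjusted threshold and the 3 of lowest unadjusted p, the synthesis and receptor lists by range and role, and the 5 genes most like *Tph2*, *Slc6a4* and *Fev* in their levels. Some list genes are not reported here by name. Other list genes were named after their values were seen. The correlations with the hindbrain score were planned over 8 libraries and tested over 6, since 2 libraries formed a separate cluster, and the relation with *Lmx1b* was added after the values were seen.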

Additional observations from a re-analysis of the deposited data

Results flagged for a closer look

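Of 48 sets of 4 values tested for a value far from the others, 1 was flagged, where chance flags about 1 in 20. The ratio of *Gata3* to *Gata2* counts was 2.60 in 0 ppm brain 4, against 1.48 to 1.62 in the other 3 brains at 0 ppm and 1.28 to 1.86 at 50 ppm. The gap from this brain to the next was 0.870 of the range of its group, above Dixon's 95% critical value for 4 samples. In that brain *Gata3* was at 12.5 CPM, the highest at 0 ppm, and *Gata2* at 4.80 CPM, within the range of the other 3.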

How the results depend on the processing

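No paired analysis was possible because the labels give no replicate numbers, the numbers used here only follow the order of the samples, and each pup came from a different litter. Under 16 alternatives no member reached an adjusted p under 0.05, and 122 of 144 recomputed fold changes and permutation differences of the members kept direction and side of the threshold while 22 reversed. The 4 correlations kept their sign after the mean of each dose was subtracted. The 1 member with an unadjusted p under 0.05 became 0 with DESeq2, with at least 10 counts in 4 libraries, with the robust edgeR fit, with limma-voom quality weights, with the hindbrain score as covariate and without 0 ppm brains 1 and 2, a setting chosen after seeing the data. Leaving out each library in turn it was 0 to 1 (0 without 0 ppm brain 1 or exposed brain 1), and without 0 ppm brain 2 the 1 member was *Maob* (unadjusted edgeR p of 0.0476), not *Lmx1b*. *Lmx1b* had an unadjusted p under 0.05 in 7 of 16 alternatives, with log2 fold changes from -0.15 to 0.90 and adjusted p from 0.530 to 1.000. The number of genes past the threshold, 4, became 18 with DESeq2, 52 without a filter, 2 with at least 10 counts in 4 libraries, 1 with limma-voom, 1 with the covariate and 7 without 0 ppm brains 1 and 2, and ranged from 2 to 20 leaving out each library in turn (20 without 0 ppm brain 3, 8 without exposed brain 3, and 2 without 0 ppm brain 1, 0 ppm brain 2 or exposed brain 4). The cause of these moves was not tested.

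The direction reversed with limma-voom for *Tph2* (-0.011), *Slc6a4* (-0.032) and *Fev* (0.094), with the covariate for *Tph2* (-0.24), *Fev* (0.30) and *Lmx1b* (-0.15), and without 0 ppm brains 1 and 2 for *Tph2* (-0.22), *Slc6a4* (-0.018) and *Fev* (0.23). Leaving out each library in turn, log2 fold changes ran from -0.11 to 0.30 for *Tph2*, -0.059 to 0.27 for *Slc6a4*, -0.27 to 0.068 for *Fev*, -0.024 to 0.27 for *Gata2* and -0.26 to 0.16 for *Gata3*. The estimates of *Maob* (-0.38 to -0.12) and *Htr1a* (0.04 to 0.25) kept their sign under all 16 alternatives.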

Other observations

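Noradrenergic neurons, the other monoamine cells of the hindbrain, were read from 5 genes that all had positive estimates at 50 ppm, with a median log2 fold change of 1.38, 4 at an unadjusted p under 0.05 and 0 at an adjusted p under 0.05. Brains 1 and 2 at 0 ppm were low in the hindbrain and spinal cord list. Without both, 4 of the 5 were positive, the median was 0.76 and 2 had an unadjusted p under 0.05. *Dbh*, the enzyme that makes noradrenaline, was at 0.649, 1.90, 2.22 and 1.32 CPM in the 0 ppm brains 1 to 4 and at 1.12, 2.70, 4.89 and 7.37 CPM in the 50 ppm brains 1 to 4. Its log2 fold change was 1.38 (SE 0.42, adjusted p = 0.921 by edgeR). *Slc6a2*, the noradrenaline transporter, was at 1.71, 8.04, 5.26 and 4.61 CPM at 0 ppm and at 2.60, 5.02, 19.9 and 26.8 CPM at 50 ppm (log2 fold change 1.46, SE 0.52). Exposed brains 3 and 4 held the highest levels of both genes, while *Lmx1b* and the hindbrain list were highest in exposed brain 1. *Phox2a*, a factor of these neurons, had an estimate of 1.41 (SE 0.50).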
